A study of Arabidopsis thaliana with 9 samples.

Results

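A set of 92 probe sets rose in the Arabidopsis ligand double mutant epfl4 epfl6 by at least 0.8 on the log2 scale and by less than 50% of that amount in the receptor mutant er-2. They were chosen from 22746 array probe sets, which were left after 64 control probe sets had been set aside. The rule compared genotype means of log2 signal. A member had an epfl4 epfl6 minus wild-type (WT) difference of 0.8 or more, an er-2 minus WT difference above −0.25 and under 50% of the epfl4 epfl6 difference, and a log2 signal on all 3 epfl4 epfl6 arrays above that on all 3 WT and all 3 er-2 arrays. Over all probe sets, 23.0% had epfl4 epfl6 arrays that cleared the WT arrays and 17.2% had ones that cleared the er-2 arrays. XTH19, which met these conditions, was left out by name, and so were XTH32, GTR2, JAL23 and STZ, which did not meet them. Because the rule used every array and both differences, the values of the members below are a description, and no test is attached to them.

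All plants were of the Col-0 background. The WT group was Col-0 itself, er-2 is a mutant allele of the receptor gene ERECTA, and epfl4 epfl6 carries mutations in the ligand genes EPFL4 and EPFL6. Each genotype had 3 arrays, given in the labels as biological replicates, of inflorescence tips taken 33 days after germination from untreated plants grown on soil at 23 °C in continuous light. The sample descriptions call the same material flower buds, and the number of plants behind an array and the bud stages are not given there. No probe set was paired with ERECTA, EPFL4 or EPFL6 in the annotation used, so the genotypes were not checked on their own transcripts. A listed gene is called measured here and below where that annotation paired a probe set with it alone. In it 8730 of the 22746 probe sets were not listed, so a gene not measured may still be on the array. Of 20 floral identity markers, UFO, SPT and NGA3 were measured, with WT means of 3.67, 6.70 and 4.0. The stem cell marker CLV3 had a WT mean of 2.84, which lies under the lower quartile of the arrays (3.22 to 3.33).

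ERECTA is a receptor-like kinase at the cell surface, and EPFL4 and EPFL6 are small secreted peptides that it perceives. In the stem the endodermis makes the peptides, the phloem is where the receptor is needed, and a MAP kinase cascade carries the signal that promotes elongation of internodes and pedicels. ERECTA also has related receptors and further peptide ligands, so loss of a receptor and loss of a pair of ligands need not remove the same signal. Transcripts higher in the ligand mutant than in either other genotype are the subject here. Arrays of bulk tissue cannot tell a change in the number of cells of a type from a change in RNA per cell.

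The label of a rise specific to the ligand mutant held only in part. In 39 of the 92 members the er-2 and WT arrays overlapped. In the other 53 the 3 er-2 arrays all lay above the 3 WT arrays, so that er-2 stood between WT and epfl4 epfl6. Across all probe sets, 20.2% had er-2 arrays fully above WT and 15.9% fully below, and since the rule admitted few falls in er-2 nothing is read from the difference. The er-2 minus WT difference was within 0.25 of 0 for 37 members and over 0.25 for 55, with a median of 0.33 over the members against 0.01 over all probe sets. It was below 0 for 10 members. As a share of the rise in epfl4 epfl6 it ran from −20.7% to 49.9% with a median of 31.3%. It exceeded 40% in 31 members and stayed under 10% in 16.

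**Figure D1:**
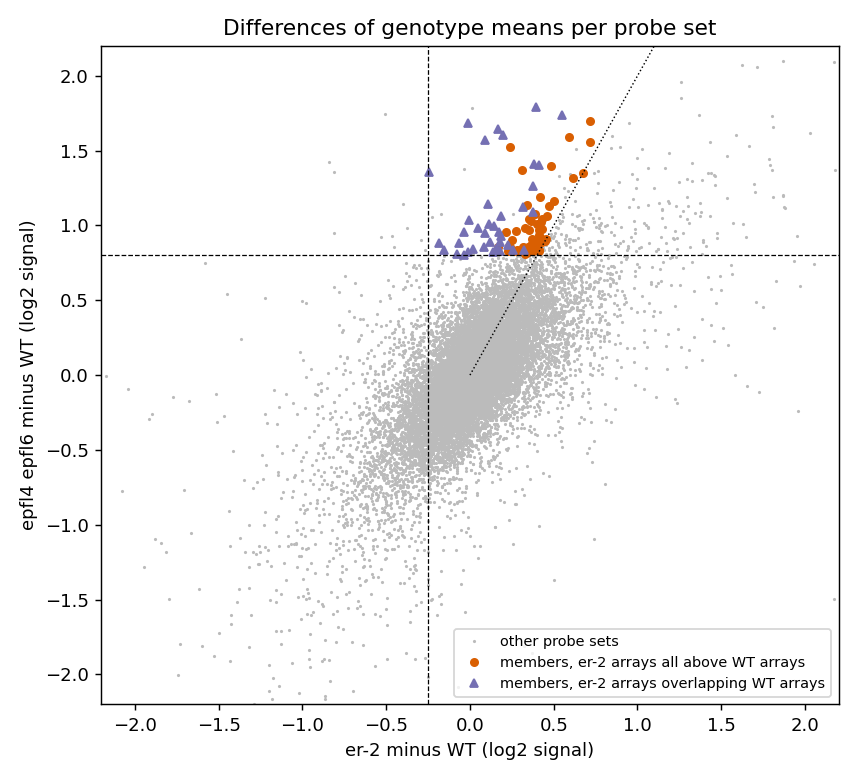
Difference of genotype means for every probe set, with er-2 minus WT on the horizontal axis and epfl4 epfl6 minus WT on the vertical axis, both in log2 signal. Dashed lines mark 0.8 and −0.25, the dotted line marks an er-2 difference of 50%, and 93 probe sets beyond 2.2 on either axis are not drawn. The 53 members with er-2 arrays above WT (circles) crowd towards the dotted line, and the 39 with overlapping arrays (triangles) reach down to an er-2 difference of −0.25.

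The rises were moderate. The epfl4 epfl6 minus WT difference had a median of 0.94, or 1.92-fold, and a largest value of 1.79, or 3.47-fold, where the median over all probe sets was 0.00. It reached 1 or more in 35 members and 1.5 or more in 10, and it was under 0.9 in 40. The distance from the lowest epfl4 epfl6 array to the highest array of the other genotypes had a median of 0.41. It exceeded 0.5 in 34 members and was under 0.1 in 4. All 92 members were called higher in epfl4 epfl6 than in WT by limma at an adjusted p under 0.05, where 17.9% of all probe sets were called higher. After each array was centred on its median, which moved the median difference of all probe sets to 0.05, the calls split into 4951 higher and 2922 lower, against 4079 and 3628 in the values as deposited. Between the mutants 90 members were called, each higher in epfl4 epfl6, where 20.2% of all probe sets were called in either direction. In er-2 against WT, 42 members were called higher and 11.8% of all probe sets were. These contrasts formed the rule, so nothing is read from the 3 counts.

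WT levels of the members ran from 3.12 to 11.01 with a median of 6.15, beside a median of 5.88 for all probe sets. The WT mean of 2 members lay under the lower quartile of every array, as it did for 23.7% of all probe sets. Of the 92, 45 were paired with 1 gene, 3 with several genes and 44 were not listed in the annotation used. Only 5 of the 45 had a descriptive symbol, and 40 were known by their locus tag. Where a family is named for a locus tag below, it is background knowledge of that Arabidopsis locus. It is not a field of the tables used, and the grouping by family was made after the values were seen. A group need not hold every member of its kind.

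Glycine-rich proteins, small secreted or wall-associated proteins, gave 3 of the larger rises. AT4G30450 had log2 signals of 6.57, 6.35 and 6.41 in WT, 7.17, 7.17 and 7.15 in er-2, and 8.16, 8.09 and 8.18 in epfl4 epfl6. No array of 1 genotype reached the range of another, er-2 stood between the others, and the rise in epfl4 epfl6 was 1.70 ± 0.067 (SE of the limma fit, n = 3 arrays per genotype). AT4G30460, the next protein-coding gene along chromosome 4, read 4.81, 4.76 and 4.78 in WT, 4.90, 5.22 and 5.16 in er-2, and 6.16, 5.99 and 6.31 in epfl4 epfl6. Its rise was 1.37 ± 0.10, and er-2 lay slightly above WT. AT1G04660 read 6.21, 6.36 and 6.03 in WT, 6.17, 6.19 and 6.21 in er-2, and 8.10, 7.69 and 7.87 in epfl4 epfl6. Here er-2 fell within the WT range, at a difference of −0.01, and the lowest epfl4 epfl6 array stood 1.33 above the highest of the other 6, the widest distance of any member.

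The 3 genes measured beside the glycine-rich pair had differences of both signs. AT4G30470 and AT4G30490, measured just beyond it, fell in epfl4 epfl6 by 0.55 (limma adjusted p = 0.0124) and by 0.51 (adjusted p = 0.000307). TET9, a tetraspanin gene on the other side, had a difference of 0.30 (adjusted p = 0.0601). A second pair of adjacent members lay on chromosome 1. AT1G12010, a gene of the 2-oxoglutarate-dependent oxygenases related to ACC oxidase, read 3.83, 4.58 and 4.02 in WT, 3.95, 3.98 and 3.96 in er-2, and 5.12, 4.65 and 5.30 in epfl4 epfl6, so that the lowest epfl4 epfl6 array cleared the highest WT array by 0.07. Its neighbour AT1G12020 rose by 0.83, AT1G12000 beside them by 0.34 (adjusted p = 0.00104), and AT1G12030 had a difference of −0.15 (adjusted p = 0.248). No other members with 1 gene lay within 15 protein-coding genes of each other. Chromosome 1 held 16 of the 45 members with 1 gene, or 35.6%, beside 25.9% of all such probe sets, and chromosome 5 held 5, or 11.1%, beside 22.5%. Chromosomes 2, 3 and 4 held 15.6%, 24.4% and 13.3%, beside 16.5%, 20.5% and 14.6%. These shares were not tested.

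The other genes of secreted or defence-related families, 6 in number, included dirigent proteins, a lectin, an oxidase and a protease. Dirigent-like proteins guide the coupling of phenolic radicals in lignan and lignin formation. The dirigent-like gene AT3G13662 read 4.34, 4.56 and 4.71 in WT, 4.1, 4.26 and 4.51 in er-2, and 5.93, 6.10 and 5.66 in epfl4 epfl6. It had the lowest er-2 minus WT difference of any member, −0.25, and a rise of 1.36 in epfl4 epfl6. AT1G58170, also dirigent-like, rose by 1.06 with an er-2 difference of 0.18 and overlapping er-2 and WT arrays. The jacalin-type lectin gene AT1G52000 rose by 0.95 with an er-2 difference of 0.09, and AT2G34810, of the berberine bridge enzyme-like oxidases, by 0.82 with −0.01. AT3G26450, of the Bet v 1-type family, rose by 1.32 with 0.62 in er-2, and AT3G61820, an aspartyl protease family gene, by 0.86 with 0.31. Over the 9 genes of this kind the er-2 arrays overlapped WT in 5 and stood above WT in 4, beside 53 of the 92 members and 20.2% of all probe sets above WT.

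**Figure D2:**
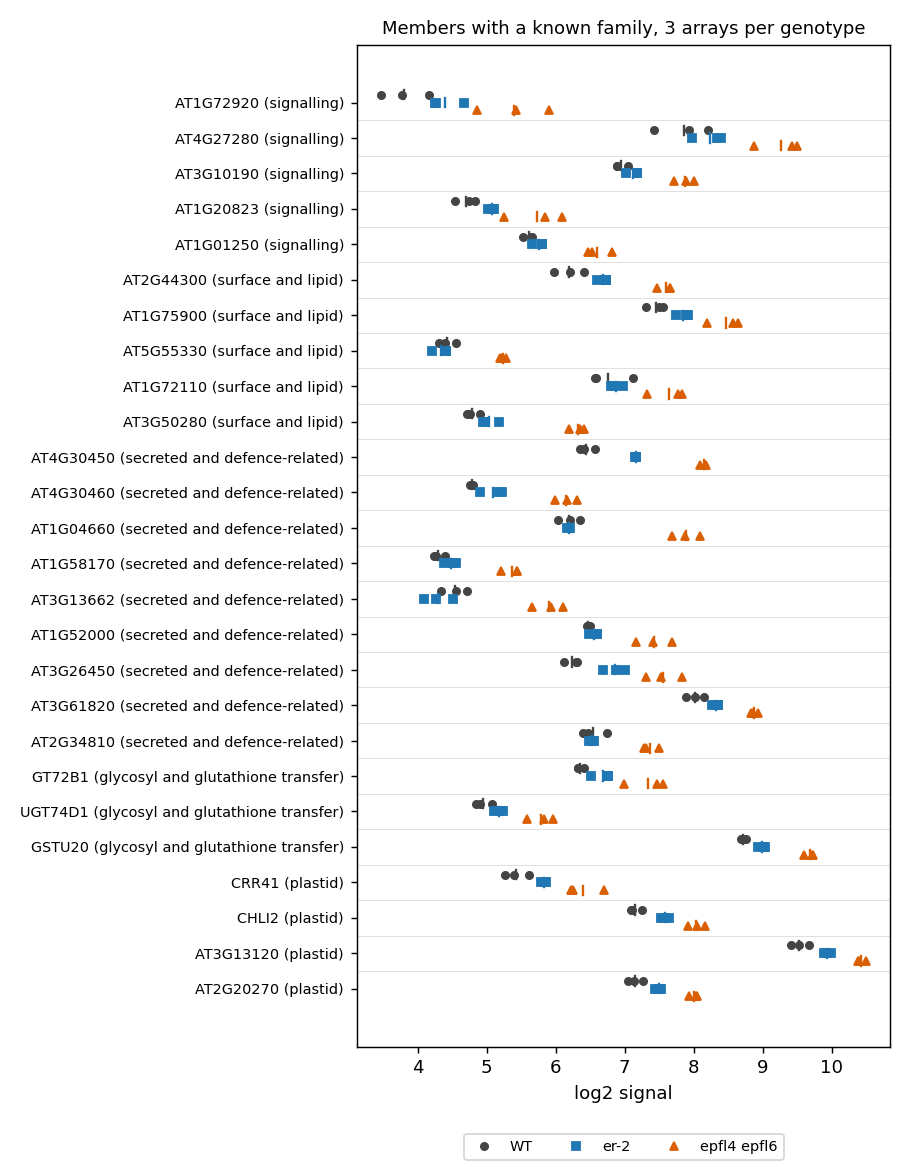
Log2 signal of the 26 members placed in a family group here, on the horizontal axis, with 1 symbol per array (circles WT, squares er-2, triangles epfl4 epfl6) and a vertical bar at each genotype mean of 3 arrays. In every row the triangles lie to the right of the other symbols. The squares lie beyond the circles in all 4 genes of the plastid group and among the circles in AT1G04660 and AT2G34810.

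Genes of surface lipids and acyl transfer formed a group of 5. Plant surfaces are sealed by cutin and waxes, whose parts are moved by lipid-transfer proteins and joined by acyltransferases and lipases. AT3G50280, an acyltransferase of the HXXXD type, read 4.72, 4.76 and 4.90 in WT, 4.95, 5.18 and 4.97 in er-2, and 6.35, 6.41 and 6.19 in epfl4 epfl6. This rise was 1.53 ± 0.087 (SE of the limma fit, n = 3), and er-2 lay just above WT at a difference of 0.24. The lipid-transfer protein gene AT2G44300 read 6.40, 6.21 and 5.98 in WT, 6.59, 6.73 and 6.73 in er-2, and 7.66, 7.66 and 7.47 in epfl4 epfl6, a stepwise pattern with a rise of 1.40. AT1G75900, of the GDSL-type esterases and lipases, rose by 1.01 with an er-2 difference of 0.40. AT1G72110, of the WSD1-like wax ester synthase family, rose by 0.89 and AT5G55330, a membrane-bound O-acyltransferase gene, by 0.81. Their er-2 differences were 0.12 and −0.08, and both had er-2 arrays that overlapped WT.

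Signalling genes were 5 in number. AT4G27280, an EF-hand calcium-binding protein gene, read 7.43, 7.93 and 8.21 in WT, 8.40, 7.97 and 8.33 in er-2, and 9.50, 8.87 and 9.42 in epfl4 epfl6. This rise was 1.41 ± 0.217 (SE of the limma fit, n = 3), and the WT and er-2 arrays overlapped. AT1G72920, of the family of immune receptors with a TIR domain, read 3.47, 3.77 and 4.17 in WT, 4.25, 4.26 and 4.67 in er-2, and 5.43, 4.86 and 5.90 in epfl4 epfl6. Its genotypes were in 3 steps with 0.19 between the highest er-2 and the lowest epfl4 epfl6 array. AT1G20823, a RING-H2 finger protein gene, rose by 1.03, AT1G01250, of the AP2/ERF transcription factors, by 1.00, and AT3G10190, a calmodulin-like protein gene, by 0.93. Their er-2 differences were 0.37, 0.15 and 0.18.

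Sugar and glutathione transferases modify small molecules and change their activity or destination. GT72B1 (AT4G01070, also listed as UGT72B1), a UDP-glucosyltransferase of phenolic compounds, read 6.41, 6.33 and 6.33 in WT, 6.77, 6.77 and 6.51 in er-2, and 7.47, 7.0 and 7.55 in epfl4 epfl6. UGT74D1 (AT2G31750), a glucosyltransferase with activity on auxin, read 5.08, 4.85 and 4.90 in WT, 5.24, 5.20 and 5.11 in er-2, and 5.96, 5.59 and 5.83 in epfl4 epfl6. GSTU20 (AT1G78370), a tau-class glutathione transferase, read 8.75, 8.72 and 8.68 in WT, 8.93, 9.03 and 9.02 in er-2, and 9.73, 9.60 and 9.71 in epfl4 epfl6. Each of these genes formed 3 separate steps. The rises were 0.98 ± 0.133 for GT72B1, 0.85 ± 0.10 for UGT74D1 and 0.96 ± 0.061 for GSTU20 (SE of the limma fit, n = 3), with er-2 differences of 0.33, 0.24 and 0.27.

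A group of plastid protein genes was formed from 4 members and need not be complete. All 4 had er-2 arrays above WT, as did 53 of the 92 members and 20.2% of all probe sets. They were grouped after their values were seen, so nothing about plastid genes is read from this count. CRR41 (AT1G51100), an assembly factor of the chloroplast NDH complex of cyclic electron transport, read 5.26, 5.40 and 5.61 in WT, 5.85, 5.86 and 5.79 in er-2, and 6.23, 6.25 and 6.70 in epfl4 epfl6. CHLI2 (AT5G45930), a subunit of the magnesium chelatase that opens the chlorophyll branch, read 7.26, 7.09 and 7.11 in WT, 7.59, 7.63 and 7.52 in er-2, and 8.16, 7.92 and 8.04 in epfl4 epfl6. The rises were 0.97 ± 0.129 for CRR41 and 0.89 ± 0.077 for CHLI2 (SE of the limma fit, n = 3). AT3G13120, a plastid-type ribosomal protein S10 gene, rose by 0.89 and AT2G20270, a glutaredoxin gene, by 0.86. Over the 4 genes the rise ran from 0.86 to 0.97 and the er-2 difference from 0.34 to 0.43, which is 40.2% to 48.3% of the rise.

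The 19 members with 1 gene outside these groups, AT1G12010 and AT1G12020 among them, rose by 0.82 to 1.19. They had er-2 arrays above WT in 15, beside 20.2% of all probe sets. AT1G62480 was the brightest member, with 10.97, 10.99 and 11.06 in WT, 11.44 on each er-2 array, and 11.81, 11.96 and 11.98 in epfl4 epfl6. AT1G52700 and AT3G16330 rose by 1.19 and 1.17. AT1G72240, AT3G27270, AT2G40435, AT5G03120, AT2G20690, AT3G60440, AT4G34290, AT1G49650, AT3G25480, AT5G65840 and AT2G14660 rose by 0.83 to 1.09, and of these AT1G72240 had er-2 arrays that overlapped WT. A second probe set existed for 2 of the member genes. For AT5G62440 it gave a difference of 0.54 where the member gave 0.96, and for AT4G35335 it gave 0.01 where the member gave 0.83. The probe sets of AT4G35335 thus disagreed, and the rise at that gene rests on 1 of them. AT3G15310, with a rise of 0.82, is listed as a pseudogene.

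The 47 members without a single gene rose by 0.80 to 1.79, with a median of 0.91, and 22 had er-2 arrays above WT, beside the same 20.2%. They include 7 of the 12 largest rises. Probe set 248448_at, with the largest, read 4.56, 5.31 and 6.29 in WT, 5.92, 5.48 and 5.92 in er-2, and 7.63, 6.52 and 7.38 in epfl4 epfl6. Its WT arrays spread widely, at an SD of 0.868, and its lowest epfl4 epfl6 array was 0.24 above the highest WT array. Probe set 258653_at read 3.93, 4.58 and 5.07 in WT, 5.11, 5.06 and 5.04 in er-2, and 6.49, 5.98 and 6.32 in epfl4 epfl6, so that er-2 lay close to the highest WT array. The rises of these probe sets were 1.79 ± 0.400 and 1.74 ± 0.238 (SE of the limma fit, n = 3).

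A pair of dim probe sets rose from near the lower quartile of the arrays. Probe set 266821_at read 2.81, 3.12 and 3.42 in WT, 3.31, 3.13 and 3.41 in er-2, and 5.17, 4.30 and 4.81 in epfl4 epfl6. Probe set 256319_at read 3.19, 2.87 and 3.45 in WT, 3.53, 3.09 and 3.5 in er-2, and 5.01, 4.36 and 4.96 in epfl4 epfl6. In both er-2 overlapped WT, replicate 2 was the lowest of the epfl4 epfl6 arrays, and the rises were 1.64 and 1.61. Probe set 245537_at read 3.38, 3.48 and 3.62 in WT, 3.67, 3.54 and 3.54 in er-2, and 5.13, 5.23 and 4.84 in epfl4 epfl6, with er-2 only 0.09 above WT on average and a rise of 1.57. Probe set 258287_at read 4.47, 4.16 and 4.35 in WT, 5.04 on each er-2 array, and 5.95, 5.81 and 5.89 in epfl4 epfl6, which made 3 separate steps with er-2 at 0.72 and a rise of 1.56. Probe set 247543_at read 5.55, 5.87 and 6.41 in WT, 6.47, 6.05 and 6.54 in er-2, and 7.63, 6.91 and 7.49 in epfl4 epfl6, a rise of 1.40 with a wide WT range that er-2 overlapped. Identical values, to every deposited digit, on at least 2 of the er-2 arrays occurred in 15 members, or 16.3%, beside 10.1% of all probe sets. No member had identical values on WT or epfl4 epfl6 arrays, as 6.96% and 7.20% of all probe sets had. The rule fixed the place of the epfl4 epfl6 arrays above the others, so nothing is read from these shares.

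**Figure D3:**
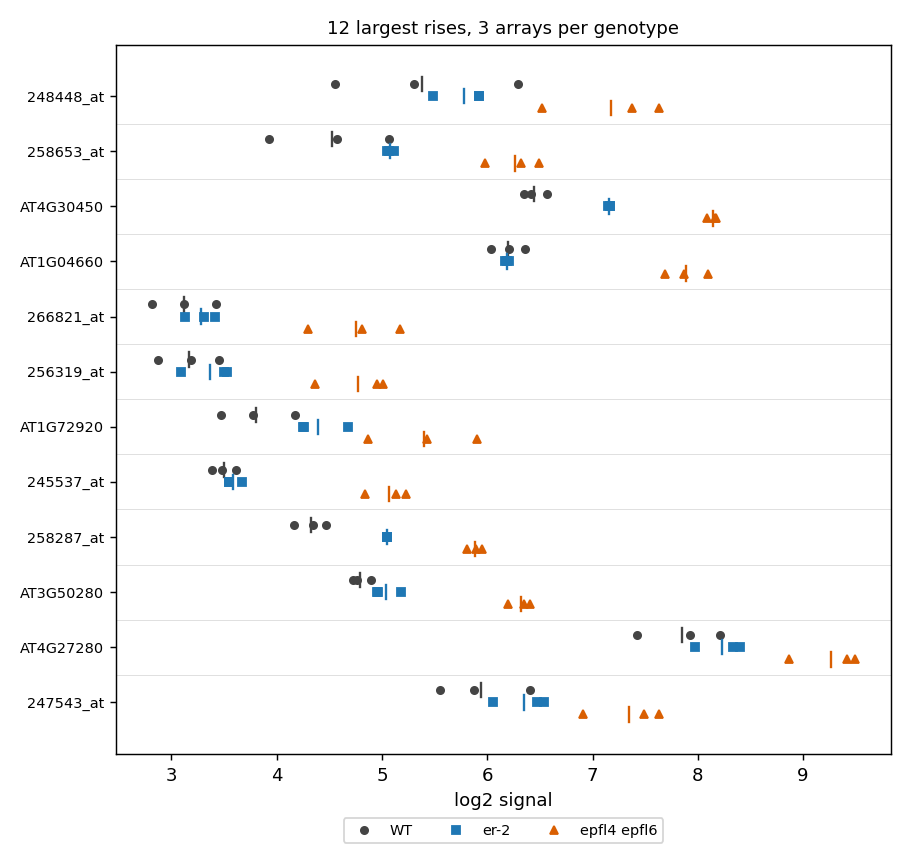
Log2 signal of the 12 members with the largest rises, with 1 symbol per array (circles WT, squares er-2, triangles epfl4 epfl6) and a vertical bar at each genotype mean of 3 arrays. The WT circles of 248448_at run from 4.56 to 6.29, and those of AT3G50280 from 4.72 to 4.90.

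Members differed in how much they varied between replicates. The SD over the WT arrays exceeded 0.3 in 11 members, or 12%, beside 3.4% of all probe sets. These were AT1G72920, AT4G27280, AT1G72110, AT1G12010 and the probe sets 248448_at, 258653_at, 266821_at, 247543_at, 256159_at, 251336_at and 261713_at. Their arrays were ordered alike in part. In all 11, replicate 2 was the lowest of the epfl4 epfl6 arrays, as it was for 33.9% of all probe sets with a WT SD over 0.3. WT replicate 1 was the lowest WT array in 9 of the 11 (30.5% of those probe sets), WT replicate 3 the highest in 9 (30.2%) and er-2 replicate 2 the lowest in 6 (32.8%). The WT order differed in AT1G72110 and 251336_at, where replicate 1 was not the lowest, and in AT1G72110 and AT1G12010, where replicate 3 was not the highest. Over the full set, epfl4 epfl6 replicate 2 was the lowest of its genotype for 62 members, or 67.4%, beside 33.6% of all probe sets. Without that array the rule found 153 probe sets in place of 92, of which 85 were shared, which is 92.4% of the 92 and 55.6% of the 153. The median rise of the 92 was then 0.99.

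**Figure D4:**
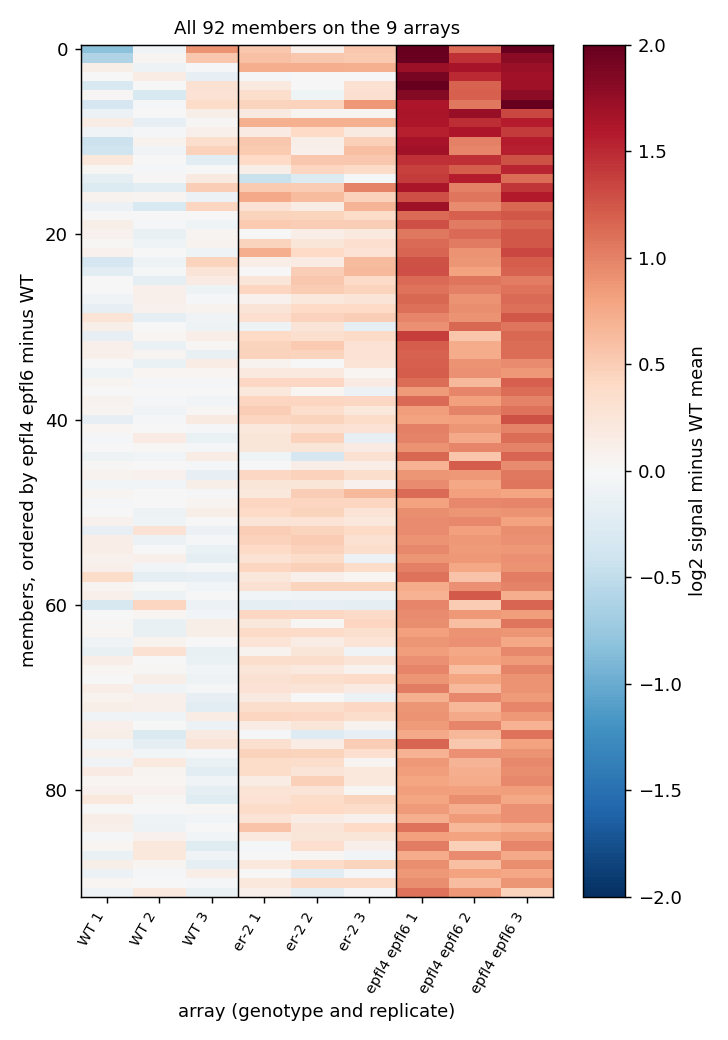
Log2 signal minus the WT mean for all 92 members (lines, ordered by their rise from 1.79 at the top to 0.80 at the bottom) on the 9 arrays (columns); colours are limited at 2 on either side of 0. The er-2 columns are pale in most lines, and epfl4 epfl6 replicate 2 is paler than replicates 1 and 3 in many of the upper lines.

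The excess of 3′ over 5′ signal in control transcripts placed er-2 between WT and epfl4 epfl6. The members' median level did so too, and the 25S rRNA signal did not. The rule put epfl4 epfl6 highest in every member and limited the er-2 difference, so nothing is read from the shared order. For the actin, GAPDH and ubiquitin controls, the mean excess of 3′ over 5′ probe signal was 3.31 ± 0.120 in WT, 2.89 ± 0.068 in er-2 and 2.37 ± 0.105 in epfl4 epfl6 (log2, SD, n = 3). Beside it, the median level of the members was 6.09 ± 0.070 in WT, 6.36 ± 0.10 in er-2 and 7.06 ± 0.160 in epfl4 epfl6. Signal of the 25S rRNA control was 11.84 ± 0.027, 11.84 ± 0.105 and 11.30 ± 0.150 in the same order. Among the epfl4 epfl6 arrays the member median was 7.09, 6.89 and 7.21, with 3′ excesses of 2.25, 2.43 and 2.43. The part of RNA or labelling quality in the members' rises was not tested.

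**Figure D5:**
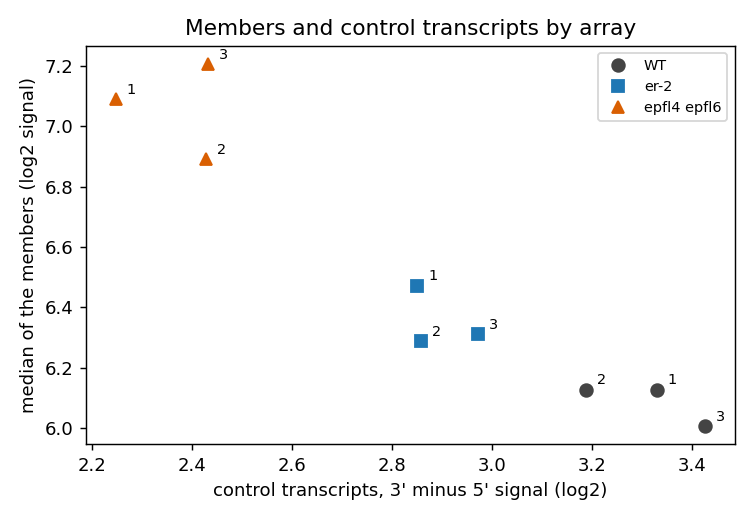
Median log2 signal of the 92 members (vertical axis) against the mean excess of 3′ over 5′ signal in the controls (horizontal axis, log2) for each of the 9 arrays, numbered by replicate. The genotypes form separate groups on both axes, from WT at the lower right to epfl4 epfl6 at the upper left. The rule itself largely set the order on the vertical axis.

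Beside the plastid members stand 4 measured genes of a list of 22 photosynthesis genes, none of them a member. All 4 were called higher in both mutants, where 17.9% of all probe sets were called higher in epfl4 epfl6 and 11.8% in er-2. PORB (AT4G27440), which makes chlorophyllide in the light, read 9.02, 9.50 and 9.28 in WT, 10.06, 9.88 and 9.87 in er-2, and 9.84, 9.83 and 9.99 in epfl4 epfl6. Its rise was 0.67 in er-2 (limma adjusted p = 0.00264), and that in epfl4 epfl6 was 0.62 (adjusted p = 0.00213). RCA (AT2G39730), the activase of Rubisco, read 11.73, 11.65 and 11.63 in WT, 12.23, 12.23 and 12.04 in er-2, and 12.16, 12.04 and 12.25 in epfl4 epfl6. Both mutants lay above WT, by 0.49 in er-2 (adjusted p = 0.00159) and 0.48 in epfl4 epfl6 (adjusted p = 0.000975). PSAN (AT5G64040), of photosystem I, rose by 0.40 in each mutant (adjusted p = 0.0114 and 0.00671). LHCB4.1, an antenna protein gene, rose by 0.18 in epfl4 epfl6 (adjusted p = 0.0442), a call lost in 9 alternatives, with adjusted p from 0.00871 to 0.238. By limma none of the 4 was called between the mutants (adjusted p from 0.214 to 1.000, and 0 at an unadjusted p under 0.05), and their median difference there was −0.03, whereas the 4 plastid members were chosen to differ there. The summed signal of the list was 13.18 to 13.25 in WT, 13.59 to 13.67 in er-2 and 13.50 to 13.63 in epfl4 epfl6, as log2 of the sum. The part of a shift in green tissue in the members' rises was not tested.

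Markers of the tapetum, the nutritive layer of the anther, moved the other way where they were called. Of 26 listed, 6 were measured, and 4 were called lower in epfl4 epfl6 and 3 in er-2, where 16.0% and 9.01% of all probe sets were called lower. The summed signal of the 6 was 10.14 to 10.86 in WT, 9.36 to 10.15 in er-2 and 9.04 to 9.25 in epfl4 epfl6. SHT (AT2G19070), a tapetal acyltransferase, read 8.55, 8.56 and 7.35 in WT, 5.61, 7.67 and 5.47 in er-2, and 3.28, 3.86 and 3.34 in epfl4 epfl6. In epfl4 epfl6 it changed by −4.66 (limma adjusted p = 0.000174). In er-2 it changed by −1.90 (adjusted p = 0.0326), a call that was lost in 6 of the alternatives, with adjusted p from 0.00143 to 0.115 over all of them. ATA27, also tapetal, had an epfl4 epfl6 mean of 2.61, which is under the lower quartile of the arrays. EMS1, called lower in both mutants, lost that call in 4 alternatives in epfl4 epfl6 (limma adjusted p up to 0.0683). In er-2 the EMS1 call was lost in 3 alternatives (limma adjusted p up to 0.0563). The part of a smaller anther share in the members' rises was not tested.

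The pathway lists held 438 symbols in 17 lists, of which 70 genes had a named probe set, and no member was among them. The 44 members not listed in the annotation and the 3 with several genes could not be matched to any list. Nothing about the pathways of the members is therefore read from their absence. Of the 70, 16 were called higher and 13 lower in epfl4 epfl6 against WT, and 11 higher and 15 lower in er-2. These counts and those of each list below stand beside 17.9% of all probe sets called higher and 16.0% lower in epfl4 epfl6, and 11.8% higher and 9.01% lower in er-2. Lists that touch the roles of the members gave mixed counts. For glucosinolates, defence compounds of this plant family, 5 of 34 genes were measured, and 2 were called higher in epfl4 epfl6, namely GTR2 and UGT74B1. UGT74B1 (AT1G24100), a glucosyltransferase of glucosinolate synthesis, read 6.54, 6.37 and 6.25 in WT, 6.04, 6.15 and 6.0 in er-2, and 7.05, 6.99 and 7.04 in epfl4 epfl6. Its rise in epfl4 epfl6 was 0.64 (limma adjusted p = 0.000252), and the mutants differed (adjusted p = 7.73e-05). The fall in er-2 was −0.32 (adjusted p = 0.0165), but that call was lost on leaving out er-2 replicate 1 or 3, with adjusted p from 0.00782 to 0.0582 over the alternatives. Of 4 measured jacalin-related lectin genes, JAL23 was called higher in epfl4 epfl6 and JAL34 lower (change −0.82, adjusted p = 0.00483).

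Of 18 measured xyloglucan and expansin genes, which loosen the cell wall, 8 were called higher and 3 lower in epfl4 epfl6, and 5 higher and 4 lower in er-2, where 17.9%, 16.0%, 11.8% and 9.01% of all probe sets were called in the same order. EXLB1 (AT4G17030), an expansin-like gene, read 3.89, 3.79 and 3.74 in WT, 6.58, 6.18 and 6.41 in er-2, and 5.55, 5.38 and 5.34 in epfl4 epfl6. Against the order that the rule set for the members, it was higher in er-2 than in epfl4 epfl6, by 0.97 (limma adjusted p = 0.000307). EXPA9 (AT5G02260), an expansin gene, read 4.63, 4.71 and 4.24 in WT, 5.87, 5.92 and 5.78 in er-2, and 5.92, 5.88 and 6.04 in epfl4 epfl6. It rose by 1.42 in epfl4 epfl6 and by 1.33 in er-2 (adjusted p = 3.17e-05 and 6.35e-05). Of 10 measured auxin genes 1 was called higher and 4 lower in epfl4 epfl6, beside the rise of UGT74D1. The list of touch, wound and elicitor response genes held 34 symbols, of which 8 were measured, and the others had no named probe set. Of these 8 limma called none higher, with 2 higher and 2 lower at an unadjusted p under 0.05, and 1, PUB23, fell by 0.49 (adjusted p = 0.000716). STZ, left out of the set by name, had a difference of 1.38 (adjusted p = 0.0538, and from 0.0028 to 0.176 over the alternatives). In that list CML38 (AT1G76650), a calmodulin-like gene that was not called, read 4.53, 4.40 and 5.94 in WT, 4.35, 4.29 and 5.33 in er-2, and 5.93, 4.79 and 5.77 in epfl4 epfl6. WT replicate 3 was the highest and epfl4 epfl6 replicate 2 the lowest of their genotypes, as in most of the 11 variable members. CML37 and STZ showed both features as well, and the other measured genes of the list did not show both. The lowest WT array of CML38 was replicate 2, whereas replicate 1 was the lowest in 9 of the 11. The summed signal of this list was 7.38 to 8.21 in WT, 6.98 to 7.39 in er-2 and 7.61 to 8.25 in epfl4 epfl6. What part handling or wounding had in the members' rises was not tested.

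Values lay close together on both sides of the rise limit. Just inside the rise of 0.8 were 267431_at at 0.801, 266091_at at 0.807 and AT5G55330 at 0.809, and just outside were AT2G42710 at 0.799, AT2G32350 at 0.799 and AT5G13030 at 0.799. At the er-2 share of 50%, 256159_at lay inside at 49.9% and AT1G03820 outside at 50.7%. At the er-2 floor of −0.25, AT3G13662 lay inside at −0.246 and AT5G66390 outside at −0.347.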

How the data were processed

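Each deposited value is a log2 expression level of 1 probe set on 1 array, from 1-colour Affymetrix arrays. RMA and limma are the tools given, per the submitters' processing notes, without versions. Labelled cRNA came from 100 ng of total RNA by a 3′-primed kit, per the labels' protocols. The values were used as deposited, with array medians of 5.82 to 5.91. Arrays have no read depth, and their number sets the precision.

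Gene names came from the platform annotation, which paired 13513 probe sets with 1 gene, 503 with several and left 8730 unlisted. Symbols, synonyms and gene order came from a RefSeq table of assembly TAIR10.1. Sequences and promoter motifs were not used here.

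limma 3.58.1 in R 4.3.3 was fitted to all 9 arrays with genotype as the only term, and p-values were adjusted by Benjamini-Hochberg over 22746 probe sets. Calls were two-sided at an adjusted p under 0.05, and the fit was tested on simulated data. The p-values set a difference of genotype means against the spread between arrays of a genotype, with 3 arrays in each. What variation between plants that spread covers is not known, since the number of plants behind an array is not given. The 12 largest rises and members with descriptive symbols are given with every array. Listed genes named are among the 3 of their list with the smallest adjusted p in epfl4 epfl6 against WT. LHCB4.1, CML38 and EMS1 (exceptions to this), the neighbouring genes and members given beyond these were chosen after their values were seen. Members and lists were chosen with earlier results of these data known. Alternatives were a further quantile normalization, centring on array medians, removal of the dimmest 30% of probe sets, robust estimation with a variance trend, weighted arrays, a replicate block and removal of each array in turn.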

Additional observations from a re-analysis of the deposited data

How the results depend on the processing

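The rule found between 79 and 153 probe sets when each array was left out, the highest without epfl4 epfl6 replicate 2 and the lowest without epfl4 epfl6 replicate 3, and 98 after quantile normalization again, 135 after median centring and 91 without the dimmest probe sets. Of the 92 members, 48 met the rule under all 12 of these settings, and the cause of the losses was not tested. The members' median rise stayed between 0.91 and 0.99, and all those measured stayed above WT. Of 2206 recomputed member differences, 9 moved by more than 1 SD between replicates. The probe sets called in epfl4 epfl6 against WT numbered 7707, from 6264 to 8133 over the alternatives. Same-numbered arrays of different genotypes deviated from their genotype means with correlations of −0.193 to 0.289, and different-numbered ones with −0.279 to 0.278. With 3 arrays per genotype these ranges cannot settle whether the numbers pair the samples. With the replicate number as a block 7449 were called in epfl4 epfl6 against WT, 4367 in er-2 against WT in place of 4722 and 4248 between the mutants in place of 4587. Pathway list genes called numbered 26 to 33 in epfl4 epfl6 and 20 to 29 in er-2. No pathway gene had a further probe set to average. Signal over background was not given, so levels near the lower quartile carry no detection call.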
